A study of Mus musculus with 17 samples.

Results

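The mRNA of 9 genes that write or read DNA methylation was followed through 6 populations of mouse blood-forming stem and progenitor cells. The genes were the DNA methyltransferases Dnmt1, Dnmt3a and Dnmt3b, their relative Dnmt3l, the Dnmt1 partner Uhrf1, and the methyl-CpG binding domain genes Mbd1, Mbd2, Mbd3 and Mbd4. Members were taken by name alone: every non-control probe whose gene name in the scanner files was one of these symbols. This gave 16 of 41174 probes and 9 of 28090 gene names. Dnmt3a and Mbd1 had 3 probes each, Uhrf1, Mbd2 and Mbd4 had 2 each, and Dnmt1, Dnmt3b, Dnmt3l and Mbd3 had 1 each.

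Cells came from the bone marrow of female C57Bl/6 mice aged 6 to 8 weeks, with 10 to 20 mice pooled per replicate. After depletion of lineage-positive cells and enrichment for c-kit, the HSC subsets were sorted as Lin- c-kit+ Sca-1+ cells, with LT-HSC being CD34- FLT3-, ST-HSC CD34+ FLT3- and MPP CD34+ FLT3+. The myeloid progenitor populations were sorted as Lin- c-kit+ Sca-1- cells in a separate sort, with CMP at middle levels of CD34 and Fcγ receptor, GMP positive for both and MEP negative for both. No population was treated, and RNA was read on 17 single-color Agilent arrays (LT-HSC 2, all others 3 each). Expression values are quantile-normalized log2 intensities, in which 1 unit is a doubling, and differences are given on that log2 scale. A probe's level was not set against that of another probe, since brightness depends on the probe as well as on the transcript. Fewer cells of a type and less RNA per cell cannot be told apart in such pools.

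DNA methylation is copied to the new strand after replication by Dnmt1, which Uhrf1 brings to hemimethylated CpG sites. Dnmt3a and Dnmt3b set methylation at sites that had none, and Dnmt3l, which has no catalytic activity of its own, assists them in germ cells. Mbd1 and Mbd2 bind methylated CpG and repress transcription, Mbd2 and Mbd3 are alternative subunits of the NuRD complex although mammalian Mbd3 binds methylated DNA poorly, and Mbd4 is a glycosylase that removes the T of a G:T mismatch left by deamination of methylated C. In blood formation, loss of Dnmt1 or of the Dnmt3 genes is known to disturb self-renewal and lineage choice of stem cells.

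Array values stand for the 60 bases that a probe reads, so the probes of 4 members are shown: the only probe of Dnmt1 and of Mbd3, and the brightest probe of Dnmt3a and of Mbd4, which are 2 of the genes whose probes gave different answers. Each is printed 5′ to 3′ as the scanner files give it, with no base marked.
Dnmt1 (A_51_P195573): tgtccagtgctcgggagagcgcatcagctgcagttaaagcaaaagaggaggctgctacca
Dnmt3a (A_52_P76146): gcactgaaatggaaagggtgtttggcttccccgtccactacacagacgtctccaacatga
Mbd3 (A_51_P398004): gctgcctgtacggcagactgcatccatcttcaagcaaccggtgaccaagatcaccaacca
Mbd4 (A_51_P203192): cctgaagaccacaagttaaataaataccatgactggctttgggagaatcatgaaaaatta

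In build mm9, as the scanner files place them, the Dnmt1 probe lay at chr9:20711973-20712341 on the minus strand and the Dnmt3a probe at chr12:3906868-3907649. Both of these spans were longer than the probe, so the probe joins exons there. The Mbd3 probe lay at chr10:79857864-79857923 and the Mbd4 probe at chr6:115792515-115792574, both on the minus strand and each in 1 block. The single Dnmt3b probe lay at chr2:153513083-153513142 and the single Dnmt3l probe at chr10:77526112-77526171. Of the 16 probes, 2 crossed an intron and 3 had a stop codon in all 3 forward reading frames, as A_52_P169048 of Dnmt3a, A_52_P314705 of Uhrf1 and A_52_P381236 of Mbd4 did. The probes of Dnmt3a, Mbd1, Mbd2 and Mbd4 were not all assigned to the same transcript record, while the 2 of Uhrf1 were. Probes of those 4 genes are therefore not repeat readings of 1 known transcript. Which exon or untranslated region each probe lies in was not analysed here.

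Arrays were scanned on 4 days, which are grouped here by calendar month of the scan date into 3 runs. The runs were unevenly filled. Run 1 held 6 myeloid arrays, run 3 held 6 HSC arrays including both LT-HSC arrays, and only run 2 held both sides, with 1 ST-HSC, 1 MPP, 1 CMP, 1 GMP and 1 MEP array. Called differences between HSC subsets and myeloid populations are therefore given with the run as a block in the fit and, for the members, mostly also as values within run 2. The sort that gave the cells also differed between the sides, and sort and cell type cannot be told apart. Of the LT-HSC arrays, one carried a pool of replicates 2 and 3 by its label, and the unnumbered one was dim: its 75th percentile of intensity was 53.1, against 243 to 534 elsewhere. Of the 16 member probes, 13 were well above background on all 17 arrays. The 6 HSC markers examined were all higher in HSC subsets, 5 of them with the run as a block. Slamf1 lost its call there (0.52) and was lower in MPP than in CMP (adjusted p = 0.00022 in limma). The 5 GMP markers found were all higher in GMP than in MEP, and 1 was called higher in GMP than in CMP. Of these 5, 2 were lower in HSC subsets (0 with the block). Their summed log2 level was 18.30 to 19.01 over ST-HSC and 17.95 to 19.06 over CMP arrays. Of 6 MEP markers, 5 were lower in GMP than in MEP and 1 was higher. The MEP markers also differed inside the HSC subsets, where 3 were called higher and 1 lower in LT-HSC than in ST-HSC and 5 higher in ST-HSC than in MPP. Their summed log2 level was 13.7 to 14.4 over LT-HSC, 12.7 to 14.1 over CMP and 15.61 to 15.99 over MEP arrays.

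Across the 6 populations the largest and firmest change among the methyltransferases was in Dnmt3b, which was 1.99-fold higher in HSC subsets than in myeloid populations and lowest in MEP. Dnmt1 was lower in HSC subsets, by 1.51-fold, while Uhrf1, its partner, was not called in that contrast or between neighbouring populations. Dnmt3l was higher in GMP than in CMP and MEP, with CMP minus GMP at -2.42 and GMP minus MEP at 2.44 on the log2 scale, or -1.03 and 1.06 with normexp background correction, the probe being above background on 1 of 3 MEP arrays. Among the readers, Mbd2 and Mbd3 were lower in HSC subsets, each over 3-fold, but these differences and that of Dnmt1 lost their call with the scanning run as a block.

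**Figure D1:**
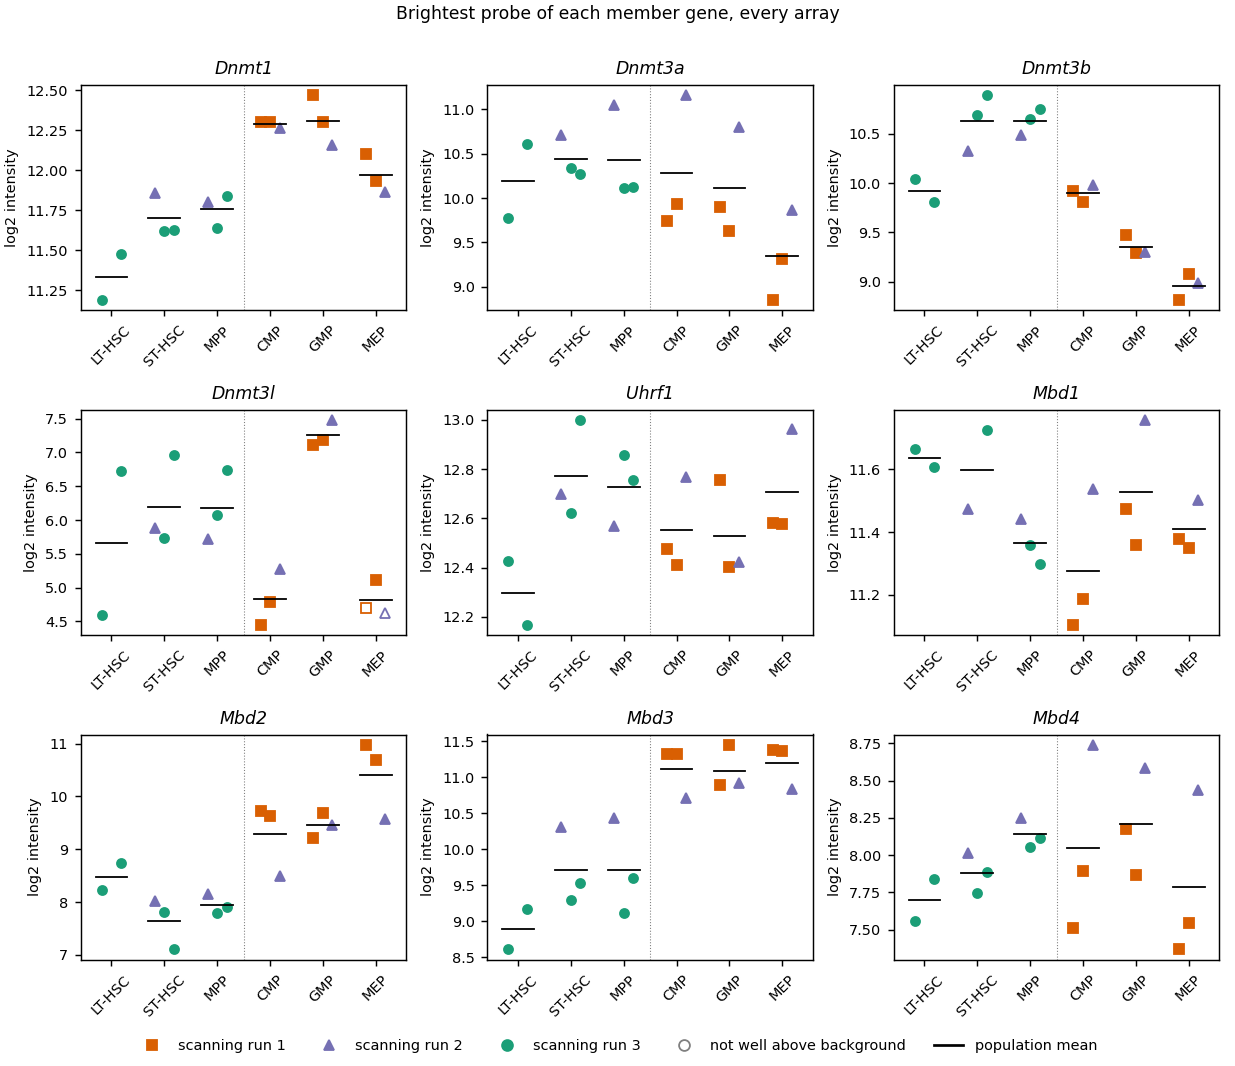
Normalized log2 intensity of the 9 genes, 1 probe each (the brightest), on every array in the 6 populations. Points are arrays, shaped by scanning run, and bars are population means. Dnmt3b runs from 10.64 in ST-HSC to 8.96 in MEP, Dnmt3l peaks in GMP at 7.26, and Mbd3 separates the HSC arrays from the myeloid arrays.

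By the F-test over the 6 populations, in limma with Benjamini-Hochberg adjustment over all probes, 10 of the 16 member probes differed at an adjusted p under 0.05, against 40.6% of all probes. At an unadjusted p under 1e-06, the threshold of the methods, the Dnmt3b probe alone passed (adjusted p = 9.65e-06 in limma), against 4.90% of all probes. Between HSC subsets and myeloid populations 9 of 16 probes, of 7 genes, were called, against 41.3% of all probes. Of these, 3 were higher in HSC subsets (18.2% of all probes were) and 6 were lower (23.1% of all probes). The split depends on scaling: with each array set to its 75th percentile the median difference of all probes moved from -0.02 to 0.31 and 4 member probes were higher and 4 lower, while the share of higher ones among all probes called went from 44.0% to 64.1%. With the scanning run as a block 4 of 16 member probes were called, against 14.5% of all probes, and 3 were called in both fits: Dnmt3b, Dnmt3a A_52_P30497 and Mbd4 A_52_P381236.

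**Figure D2:**
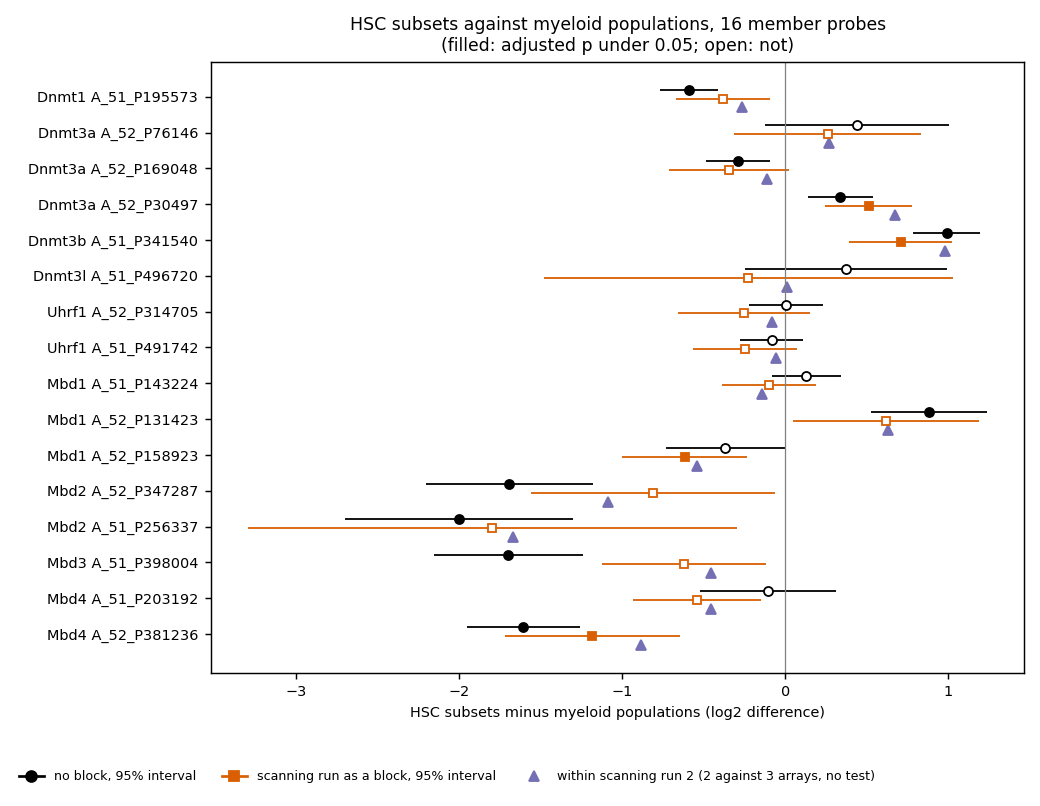
Difference between HSC subsets and myeloid populations (log2, with 95% interval) of the 16 member probes, from the fit without the scanning run and from the fit with it as a block. Filled points have an adjusted p under 0.05, and triangles are values within run 2, with no test. Most intervals widen and several differences shrink with the block, as for Mbd3 from -1.70 to -0.62, while Dnmt3b stays above 0 at 0.99 and 0.71.

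Between neighbouring populations, changes in the members were fewer. From LT-HSC to ST-HSC 1 of 16 probes was called (3.34% of all probes) and 2 with the run as a block (8.81%). Between ST-HSC and MPP none of the 16 was called in limma (2.02% of all probes), and none had an unadjusted p under 0.05. Between MPP and CMP, where the sort changes, 5 were called (12.1%), 1 higher in MPP (5.39%) and 4 lower (6.75%), and none with the run as a block (3.73%), where 3 had an unadjusted p under 0.05. Between CMP and GMP 1 was called (4.77%) and 2 with the block (8.35%). Between CMP and MEP 2 were called (16.7%) and 5 with the block (25.6%). Between GMP and MEP 2 were called (17.4%) and 6 with the block (25.4%). The run 2 arrays of GMP and MEP were scanned on different days, and with scanning day as the block 2 were called between them (22.6%).

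Dnmt1, the maintenance methyltransferase, was lower in HSC subsets than in myeloid progenitors. Its log2 values were 11.19 and 11.48 in LT-HSC, 11.62, 11.63 and 11.86 in ST-HSC, and 11.64, 11.80 and 11.84 in MPP. They were 12.26, 12.30 and 12.30 in CMP, 12.16, 12.30 and 12.47 in GMP, and 11.87, 11.93 and 12.10 in MEP. The HSC arrays all lay below the myeloid arrays, although the highest ST-HSC array and the lowest MEP array, both of run 2, were nearly equal. The difference was -0.59 ± 0.082 (SE, adjusted p = 8.08e-05 by limma). With the scanning run as a block it was -0.38 (95% interval -0.67 to -0.09, adjusted p = 0.080), and within run 2 it was -0.27 over 2 HSC and 3 myeloid arrays. In order of level, GMP and CMP stood first at 12.31 ± 0.15 (SD, n = 3) and 12.29 ± 0.02 (SD, n = 3), then MEP at 11.97 ± 0.12, MPP at 11.76 ± 0.11, ST-HSC at 11.70 ± 0.14 and LT-HSC at 11.33 ± 0.20 (n = 2), and no neighbours in that order passed the test against each other. GMP exceeded MEP by 0.34 (adjusted p = 0.12), which was a call with the run as a block (0.0460) and with normexp correction (0.35, adjusted p = 0.0464) but not with scanning day as the block (0.36, adjusted p = 0.073). Between MPP and CMP the difference was -0.53 (adjusted p = 0.0253), a call that was lost without MPP replicate 2 (-0.47, adjusted p = 0.12), MPP replicate 3 (0.058), CMP replicate 1 (0.086) or CMP replicate 2 (0.092). The run as a block (-0.34, adjusted p = 0.31), the 75th percentile (-0.47, adjusted p = 0.11) and slide as a random block (-0.45, adjusted p = 0.059) also ended it.

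Uhrf1, which recognizes hemimethylated CpG and recruits Dnmt1, was called on 1 of its probes and in 1 pair of populations, LT-HSC against MEP. The F-test over all 6 populations gave an adjusted p of 0.32 and 0.11, and with the run as a block 0.21 and 0.0413, of which the second is a call. Probe A_52_P314705 had population means from 12.30 in LT-HSC to 12.77 in ST-HSC, and probe A_51_P491742, which starts 103 bases away, from 11.01 in LT-HSC to 11.56 in MPP. Both were lowest in LT-HSC, by 0.47 and 0.43 against ST-HSC (adjusted p = 0.23 and 0.19), with no overlap between these arrays. LT-HSC was below MEP by 0.41 on the first probe (adjusted p = 0.14) and by 0.54 on the second (adjusted p = 0.0253), against 30.0% of all probes called in that pair. The second difference was -0.76 with the run as a block (adjusted p = 0.0209), and the call was lost without the unnumbered, dim LT-HSC array (-0.45, adjusted p = 0.16). LT-HSC against MPP on this probe was -0.54 (adjusted p = 0.068), and a call with the block (-0.63, adjusted p = 0.0165). Between HSC subsets and myeloid populations the first differed by 0.00 (95% interval -0.22 to 0.23) and the second by -0.08 (-0.28 to 0.11), and a difference the size of that in Dnmt1 lies outside both intervals. With the run as a block both probes stood at -0.25 (95% intervals -0.66 to 0.15 and -0.57 to 0.07), and the -0.38 of Dnmt1 in that fit lies inside both intervals. The difference between the 2 genes was not tested. The probes moved together over the 17 arrays (Pearson r = 0.81, a description over arrays that share populations and runs).

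Dnmt3a, a de novo methyltransferase, gave different answers on its 3 probes. The brightest, A_52_P76146, read 9.77 and 10.60 in LT-HSC, 10.27, 10.34 and 10.71 in ST-HSC, 10.11, 10.13 and 11.05 in MPP, 9.74, 9.93 and 11.16 in CMP, 9.63, 9.90 and 10.81 in GMP, and 8.85, 9.31 and 9.86 in MEP. In each of the 5 populations with a run 2 array, that array was the highest. HSC subsets and myeloid populations differed by 0.44 on this probe (95% interval -0.12 to 1.01, adjusted p = 0.20), by 0.26 with the run as a block and by 0.27 within run 2. It was lowest in MEP, 0.94 below CMP (adjusted p = 0.19), and with the run as a block this became a call (adjusted p = 0.00878), as did the 0.77 by which GMP exceeded MEP (adjusted p = 0.024). With scanning day as the block the first stayed a call (0.79, adjusted p = 0.0331) and the second did not (0.62, adjusted p = 0.085).

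The probe of Dnmt3a farthest along its transcript, A_52_P30497 (chr12:3912590-3912649), had the steadier values: 6.83 and 7.0 in LT-HSC, 7.19, 7.27 and 7.29 in ST-HSC, 7.43, 7.52 and 7.58 in MPP, 7.02, 7.24 and 7.37 in CMP, 6.77, 6.87 and 7.04 in GMP, and 6.24, 6.67 and 6.73 in MEP. MPP was highest and MEP lowest, and no MEP array reached any array of another population. The probe was 0.34 ± 0.092 (SE) higher in HSC subsets (adjusted p = 0.00998), 0.51 with the run as a block (adjusted p = 0.0178) and 0.67 within run 2. CMP exceeded MEP by 0.66 (adjusted p = 0.00854; 0.000634 with the block). With normexp background correction these differences were smaller, at 0.17 and 0.34, and with each array set to its 75th percentile larger, at 0.56 and 0.87, and all 4 were calls. MEP stood lowest of the 6 on both of these probes.

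The third Dnmt3a probe, A_52_P169048 (chr12:3908227-3908286), went the other way, at -0.29 ± 0.090 (SE, adjusted p = 0.0199) between HSC subsets and myeloid populations. That difference came with the LT-HSC arrays, at 7.30 and 7.58 against 7.90 to 8.24 in ST-HSC and 7.94 to 8.54 over the myeloid arrays. Without the unnumbered LT-HSC array it was -0.24 (adjusted p = 0.061), without both LT-HSC arrays -0.06 (adjusted p = 0.64), and with the run as a block -0.34 (adjusted p = 0.21). Within run 2, which holds no LT-HSC array, it was -0.11. Over the 17 arrays the 3 probes were only loosely related, with Pearson r of 0.12, 0.16 and 0.37. All values of this gene are therefore given by probe, and no single level is set for Dnmt3a.

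Dnmt3b, the other de novo methyltransferase, gave the clearest order of levels. Its log2 values were 10.32, 10.69 and 10.89 in ST-HSC, 10.49, 10.65 and 10.75 in MPP, and 9.81 and 10.04 in LT-HSC. In the myeloid populations they were 9.81, 9.92 and 9.98 in CMP, 9.29, 9.30 and 9.47 in GMP, and 8.81, 8.99 and 9.08 in MEP. ST-HSC and MPP overlapped with each other and lay above all other arrays, LT-HSC overlapped with CMP, and GMP and MEP followed without overlap. HSC subsets exceeded myeloid populations by 0.99 ± 0.095 (SE, adjusted p = 4.73e-06), 0.71 with the run as a block (95% interval 0.39 to 1.02, adjusted p = 0.0086) and 0.98 within run 2. The call was kept in all 27 alternative settings, with differences from 0.71 to 1.28.

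Steps along the Dnmt3b order were tested pair by pair. ST-HSC and MPP differed by 0.01 (95% interval -0.34 to 0.35, adjusted p = 1.0), and MPP exceeded LT-HSC by 0.71 (adjusted p = 0.032). LT-HSC was below ST-HSC by 0.71 (adjusted p = 0.0466), and leaving out 1 array ended this call in 15 of 17 cases, of which the smallest values were -0.58 without ST-HSC replicate 3 (adjusted p = 0.13) and -0.59 without the unnumbered LT-HSC array (0.30). With the run as a block it was -0.82 (adjusted p = 0.00738). MPP exceeded CMP by 0.73 (adjusted p = 0.0115), 0.48 with the block (adjusted p = 0.16), and the call was also lost without MPP replicate 2 or 3 or CMP replicate 2, at adjusted p from 0.050 to 0.060. LT-HSC and CMP stood 0.02 apart (adjusted p = 0.98). CMP exceeded GMP by 0.55 (adjusted p = 0.074; 0.0165 with the block) and GMP exceeded MEP by 0.39 (adjusted p = 0.12; 0.0353 with the block). With scanning day as the block the first was a call (adjusted p = 0.0235) and the second was not (0.36, adjusted p = 0.098). Over both steps, CMP exceeded MEP by 0.94 (adjusted p = 0.000821), which held in all 27 alternatives.

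Dnmt3l, best known as a cofactor of Dnmt3a and Dnmt3b in germ cells, was brightest in GMP. Its values were 7.12, 7.18 and 7.48 in GMP, against 4.45, 4.79 and 5.27 in CMP and 4.63, 4.70 and 5.12 in MEP, where the probe was well above background on 1 of 3 arrays. GMP arrays lay above every other array of the series, since the HSC arrays ranged from 4.59 to 6.96. Against ST-HSC, the next in order, GMP was 1.06 higher and not called (adjusted p = 0.14 in limma). CMP minus GMP was -2.42 (adjusted p = 0.00921) and GMP minus MEP 2.44 (adjusted p = 0.00228). The first is a fold of 5.35, and the second is no exact size, since 2 of 3 MEP arrays were below background. With normexp correction, which adds an offset of 50 to every intensity, they were -1.03 and 1.06, and in the authors' table -1.54 and 1.56, all of them calls. Within run 1, which held 2 arrays of each, these differences were -2.53 and 2.24, and within run 2 they were -2.21 and 2.85. Without CMP replicate 1, CMP minus GMP was -2.23 (adjusted p = 0.053). The HSC arrays were scattered, with LT-HSC at 4.59 and 6.73, ST-HSC at 5.74, 5.89 and 6.96 and MPP at 5.73, 6.08 and 6.73, and their difference from the myeloid mean was not called (0.37, 95% interval -0.25 to 0.99, adjusted p = 0.33). With the block it was -0.23, with each array set to its 75th percentile 0.84 (adjusted p = 0.046), and without the pooled LT-HSC array 0.73 (adjusted p = 0.024).

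Beside the contrast of GMP and MEP, the 4 mature erythroid markers were all lower in GMP, with summed log2 levels of 8.91 to 10.7 over GMP and 14.1 to 15.8 over MEP arrays, and their part in these differences was not tested. The 5 mature neutrophil markers had no call between GMP and MEP.

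Mbd1, a methyl-CpG binder that also acts with the histone methyltransferase Setdb1, differed between probes as Dnmt3a did. Probe A_52_P131423 read 8.42 and 9.33 in LT-HSC, 9.0, 9.21 and 9.28 in ST-HSC and 8.47, 8.86 and 8.91 in MPP, against 8.02, 8.04 and 8.42 in CMP, 7.62, 8.07 and 8.57 in GMP and 7.73, 7.74 and 8.22 in MEP. HSC arrays were higher with overlap, the pooled LT-HSC array being the lowest of them. The difference was 0.88 ± 0.165 (SE, adjusted p = 0.0008), 0.62 with the run as a block (adjusted p = 0.15) and 0.63 within run 2. The brightest probe, A_51_P143224, had means from 11.28 in CMP to 11.64 in LT-HSC and no call (0.13, 95% interval -0.08 to 0.34), and the sign turned with the run as a block (-0.10) and within run 2 (-0.14). Its value in ST-HSC replicate 2 was missing because of an outlier mark, so ST-HSC rests on 2 arrays there. Probe A_52_P158923 pointed the other way, at -0.37 (adjusted p = 0.10) and -0.62 with the block (adjusted p = 0.0377), a call that scanning day as the block did not give (adjusted p = 0.059). Its values correlated at r = -0.28 with those of A_52_P131423 over 17 arrays, as a description.

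Mbd2, which links methylated CpG to the NuRD complex, was lower in HSC subsets by its brighter probe. A_52_P347287 read 8.23 and 8.74 in LT-HSC, 7.10, 7.81 and 8.02 in ST-HSC, 7.79, 7.90 and 8.15 in MPP, 8.49, 9.64 and 9.72 in CMP, 9.21, 9.46 and 9.70 in GMP, and 9.56, 10.69 and 10.98 in MEP. ST-HSC and MPP lay below every myeloid array, and the overlap was between the unnumbered LT-HSC array and the run 2 CMP array. The difference was -1.69 ± 0.237 (SE, adjusted p = 8.43e-05), a 3.23-fold lower level, with -0.81 under the run block (95% interval -1.56 to -0.06, adjusted p = 0.15) and -1.09 within run 2. The CMP and MEP arrays of run 2 were the lowest of their populations. MPP minus CMP was -1.34 (adjusted p = 0.0436) and -0.50 with the block (adjusted p = 0.68), and 9 of the 17 arrays ended this call when left out, with the smallest values -1.12 without CMP replicate 1 (adjusted p = 0.17) and -1.16 without CMP replicate 2 (0.17). MEP exceeded CMP by 1.13 (adjusted p = 0.072), which became a call with the block (adjusted p = 0.0138), and exceeded GMP by 0.96 (adjusted p = 0.13, or 0.0311 with the block). Within run 1 GMP minus MEP was -1.38, and within run 2 it was -0.10. Without the run 2 MEP array both were calls, MEP then being above CMP by 1.55 (adjusted p = 0.0124) and above GMP by 1.38 (adjusted p = 0.0219).

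The dim Mbd2 probe, A_51_P256337, was not well above background on any LT-HSC, ST-HSC or MPP array and was so on 2 CMP, 1 GMP and 2 MEP arrays. Between HSC subsets and myeloid populations it was a call (adjusted p = 0.000256) that was lost with the run as a block (0.11). It read 1.64 to 2.77 over the HSC arrays, 3.25 to 4.5 in CMP, 1.72 to 4.10 in GMP and 4.39 to 5.34 in MEP. Its values correlated with those of the brighter probe at Pearson r = 0.86 over 17 arrays, a description that includes values below background. MEP was called higher than ST-HSC (adjusted p = 0.000876) and MPP (adjusted p = 0.00343), and CMP higher than ST-HSC (adjusted p = 0.0262). No fold is given for these, since values below background enter both sides and the dimmest level that counted as signal, 2.45 to 5.86 over the arrays, differed between them. GMP and MEP had 1 and 2 of 3 arrays above background, so a fitted difference between them rests in part on values below background and is no exact size. The call that MEP exceeded GMP on this probe (GMP minus MEP -1.69, adjusted p = 0.0463) was lost with normexp correction (-0.25, adjusted p = 0.074), in the authors' table (-0.47, adjusted p = 0.054) and when any 1 of 13 of the 17 arrays was left out. GMP minus MEP was then -0.93 without GMP replicate 1 (adjusted p = 0.17), -1.47 without MEP replicate 1 (0.15), -1.64 without MEP replicate 2 (0.12) and -1.69 in the other 10 cases.

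Mbd3, the NuRD subunit, separated the HSC arrays from the myeloid arrays. Values were 8.61 and 9.17 in LT-HSC, 9.29, 9.54 and 10.31 in ST-HSC and 9.12, 9.60 and 10.44 in MPP, against 10.71, 11.33 and 11.33 in CMP, 10.90, 10.92 and 11.46 in GMP, and 10.85, 11.37 and 11.39 in MEP. No HSC array reached a myeloid array, and the ST-HSC and MPP arrays closest to them, at 10.31 and 10.44, were those of run 2. The difference was -1.70 ± 0.212 (SE, adjusted p = 3.52e-05), a 3.24-fold lower level. Within run 2 it was -0.46, and with the run as a block -0.62 (95% interval -1.13 to -0.12, adjusted p = 0.099). MPP minus CMP was -1.40 (adjusted p = 0.0227) and -0.44 with the block (adjusted p = 0.51), and that call was lost without MPP replicate 2 (-1.10, adjusted p = 0.12), MPP replicate 3 (0.080), CMP replicate 1 (0.091) or CMP replicate 2 (0.097). Inside the sides none of the contrasts was called: CMP, GMP and MEP stood at 11.12, 11.09 and 11.20, and ST-HSC and MPP at 9.71 and 9.72. LT-HSC stood at 8.89, which was 0.82 below ST-HSC without overlap (adjusted p = 0.32 in limma).

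Mbd4, the thymine glycosylase, again depended on the probe. A_51_P203192, printed above, was at 7.56 and 7.84 in LT-HSC, 7.75, 7.88 and 8.02 in ST-HSC, 8.05, 8.12 and 8.25 in MPP, 7.51, 7.90 and 8.74 in CMP, 7.86, 8.17 and 8.59 in GMP and 7.37, 7.55 and 8.44 in MEP. MPP lay above LT-HSC and ST-HSC without overlap, and CMP, GMP and MEP overlapped with each other and with MPP. The run 2 array was the highest in each of the 5 populations that had one. The difference between the sides was -0.11 (95% interval -0.52 to 0.31, adjusted p = 0.69), and -0.54 with the block (adjusted p = 0.068). The second probe, A_52_P381236, starts 377 bases away and has no open frame. Its signal passed background on 12 of 17 arrays and on neither LT-HSC array, so that its values there give no level. It read 2.43 to 4.14 over the HSC arrays and 4.36 to 5.20 over the myeloid arrays, without overlap. The fitted difference was -1.61 ± 0.161 (SE, adjusted p = 6.82e-06), -1.18 with the block (adjusted p = 0.00941) and -0.88 within run 2. Its size is not settled, since it includes values below background: it was -0.22 with normexp correction and -0.46 in the authors' table, both calls, and -0.60 with each array set to its 75th percentile (adjusted p = 0.053). Its step between MPP and CMP (-0.88, adjusted p = 0.0492) was lost when any 1 of 13 arrays was left out, at values from -0.99 to -0.81, and was smaller and not called with the run as a block (-0.53, adjusted p = 0.41), with the 75th percentile (-0.20, adjusted p = 0.85), with normexp correction (-0.17, adjusted p = 0.089) and in the authors' table (-0.34, adjusted p = 0.054).

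**Figure D3:**
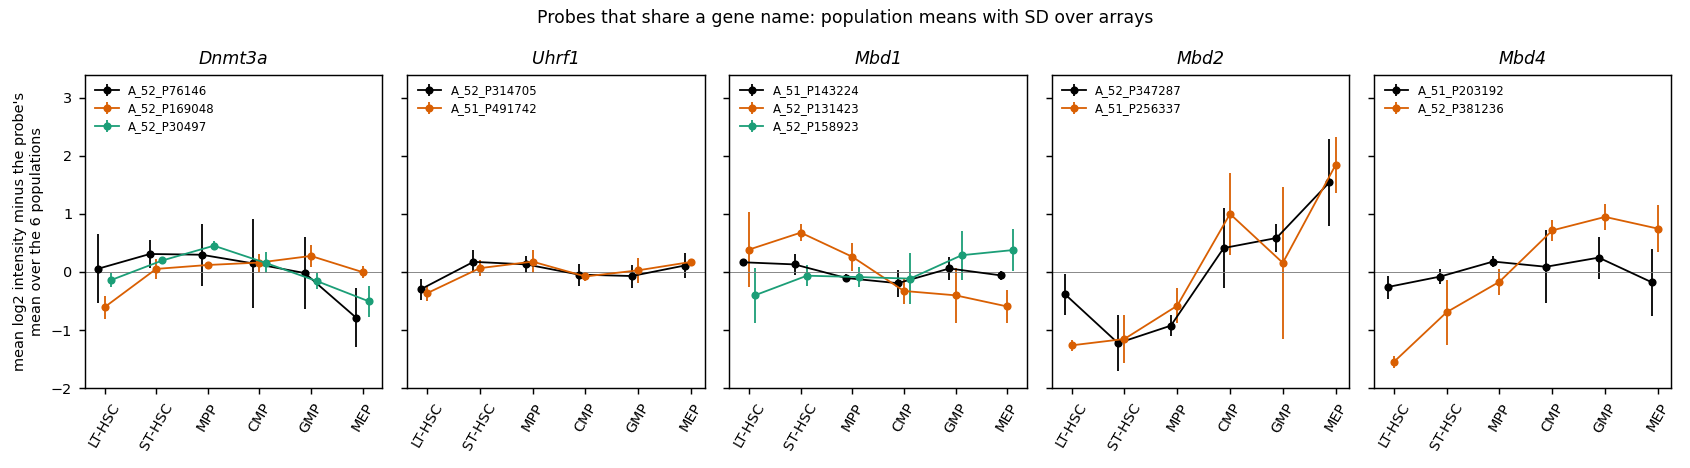
Population means of every probe of the 5 genes with more than 1 probe, each probe centred on its own mean over populations (log2, with SD over arrays). The 2 Uhrf1 probes run alongside each other, and both Mbd2 probes are highest in MEP and lower in HSC subsets, the dimmer one being below background on all 8 HSC arrays. The 3 Dnmt3a, the 3 Mbd1 and the 2 Mbd4 probes part.

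Beside the contrast of HSC subsets and myeloid populations, marker genes of mature cells moved as well. Of 5 mature neutrophil markers 4 were higher in HSC subsets, with summed log2 levels of 16.2 to 19.1 over HSC and 15.2 to 17.8 over myeloid arrays. All 5 T cell markers were higher (9.30 to 11.1 against 6.95 to 9.49), as were 4 of 5 B cell markers (12.7 to 16.1 against 10.5 to 14.9) and 2 of 4 mature erythroid markers (12.8 to 14.5 against 8.91 to 15.8). With the run as a block, 5 neutrophil, 2 T cell, 2 B cell and 0 mature erythroid markers were called higher in HSC subsets. In that fit 14.5% of all probes were called in either direction. Of the defining markers, Cd3d and Cd3g were well above background on no CMP or GMP array, and Pax5 on no LT-HSC, CMP, GMP or MEP array. Their part in the member differences was not tested.

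The other genes of the pathway were read from lists set by function, 1 probe each, and are given as counts called between HSC subsets and myeloid populations, beside the 41.3% of all probes called there (18.2% higher and 23.1% lower). A list whose share lies near these is no result about the list. Of 7 other methyl-CpG readers with Uhrf2, 3 were higher and 1 lower in HSC subsets, with a median difference of 0.52 against -0.02 over all probes. With the run as a block the median was 0.24 and 1 gene was called, as higher. Zbtb4, a zinc finger reader of methylated DNA, was 1.84 higher (adjusted p = 2.84e-07; 1.59 with the block, where it stayed called). Zbtb38, of the same family, differed by -0.84 and Uhrf2, the relative of Uhrf1, by 0.63, and both calls were lost with the block. Mbd6 was the single call of this list between GMP and MEP, 0.65 higher in GMP.

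Of 7 genes of demethylation, 2 were higher and 1 lower in HSC subsets, a share near that of all probes. Gadd45b, a stress-response gene linked to active demethylation, was 1.76 higher and 2.90 higher with the block, and Smug1, a uracil glycosylase, differed by -0.65 and by -0.75 with the block, called in both fits, with 1 of 2 LT-HSC arrays above background. Tet3, a dioxygenase that oxidizes methylated C, was 0.85 higher, with -0.13 and no call under the block. Between GMP and MEP, Tet2, its relative and a gene often mutated in myeloid disease, was 1.45 higher in GMP (adjusted p = 0.00399; its probe was above background on 1 of 3 MEP arrays, so this is no exact size) and Gadd45a, another stress-response gene, differed by -0.86.

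The NuRD complex, which Mbd2 and Mbd3 join, had 1 of 11 other subunits higher and 3 lower, a share below that of all probes. Chd3, its helicase, was 1.01 higher and stayed called with the block at 0.91, while Gatad2a at -0.70 and Mta3 at -0.50 did not. Between GMP and MEP the subunits Mta3 (-1.56) and Mta1 (-0.53) were lower in GMP. None of the 3 lower calls of this list held with the block.

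Of 10 partners of the methyltransferases and readers, 3 were higher and 4 lower in HSC subsets, and 0 and 2 with the run as a block. The histone methyltransferases Suv39h1 and Setdb1 differed by -1.23 and -1.16 and the corepressor Trim28 by -1.09, and of these Suv39h1 stayed called with the block, at -0.87. Dmap1, which binds Dnmt1, was the other that stayed called lower in HSC subsets with the block (-0.36, adjusted p = 0.0474 in limma). It was also lower in GMP than in MEP (-0.64). For the supply of the methyl donor, 2 of 5 genes were lower: Mtr, methionine synthase, at -1.98 and Ahcy, which clears the product of methylation, at -1.05, both also called with the block, at -1.03 and -0.68. Between GMP and MEP neither was called, at adjusted p of 0.70 for Mtr and 0.55 for Ahcy.

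Of 14 genes of DNA replication, whose expression Dnmt1 and Uhrf1 are known to follow in cycling cells, none was higher and 10 were lower in HSC subsets, 6 of them with the run as a block. The flap endonuclease Fen1 differed by -2.04, the topoisomerase Top2a by -1.44 and the helicase subunit Mcm5 by -1.12, and with the block they stayed called at -1.13, -0.76 and -0.63. Between GMP and MEP, Rrm1, a subunit of ribonucleotide reductase, was the single call (-0.59), against 17.4% of all probes. With the run as a block 5 of the 14 were called, all lower in GMP, against 25.4% of all probes. The mean of the 14 genes was 13.72 ± 0.06 (SD, n = 3) in MEP, 13.39 ± 0.10 in GMP and 13.37 ± 0.07 in CMP, against 13.06 ± 0.05 in ST-HSC, 12.97 ± 0.07 in MPP and 12.88 ± 0.04 (n = 2) in LT-HSC. MEP had the highest mean in these genes, where Dnmt1 had its highest means in GMP and CMP and the Uhrf1 probes in ST-HSC and MPP. On the Uhrf1 probes MEP was only 0.019 and 0.005 below MPP (adjusted p = 0.95 and 0.98 in limma). The mean of the 14 genes correlated over 17 arrays at r = 0.66 with Dnmt1 and 0.13 with the brightest Uhrf1 probe. Within runs these were 0.02 and 0.50, as a description. Whether either gene follows the replication genes was not tested.

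**Figure D4:**
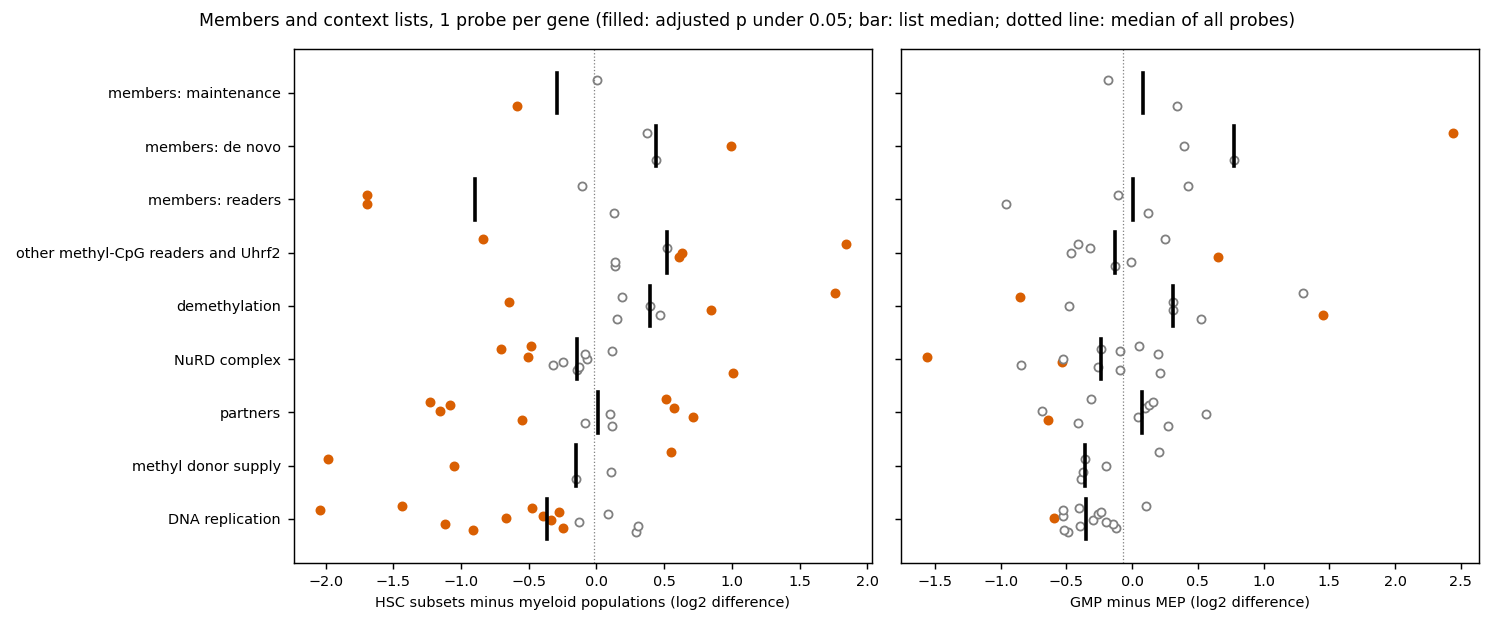
Differences (log2) between HSC subsets and myeloid populations, left, and between GMP and MEP, right, with 1 probe per gene, for the 9 members and the genes of each list. Filled points have an adjusted p under 0.05, bars are list medians and dotted lines the median of all probes (-0.02 on the left). On the left 10 of 14 DNA replication genes are filled and lie below the line, and the other context lists have filled points on both sides.

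The gene names whose arrays followed each member most closely were sought among 15470 names well above background on at least 9 arrays, as a description over 17 arrays that share populations and runs. For Dnmt3b they were Dusp6 (Pearson r = 0.97), Exoc3 (0.97) and Art5 (0.96), and for Dnmt1 Stub1 (0.96), Igsf8 (0.95) and Iqgap3 (0.95). For Mbd3 they were Chmp6, Anapc2 and Mcrs1, each at 0.99, and for Mbd2 Mettl8 (0.97), Nol14 (0.97) and the unnamed transcript NAP016308-001 (0.96). Dnmt3a, by its brightest probe, was followed by Clic1 (0.95), Zfp414 (0.94) and Dynlrb1 (0.93). The closest names were less close for Mbd4 (E130303B06Rik, 0.89), Dnmt3l (Eml5, 0.87), Uhrf1 (Caprin1, 0.87) and Mbd1 (Derl2, 0.86).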

How the data were processed

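The authors deposited scanner output of 17 arrays with spot intensity already background-corrected by Agilent Feature Extraction (versions 10.2.1.3 and 9.5.3.1) but not normalized between arrays. They also deposited a table of quantile-normalized log2 values, used as an alternative. Groups came from the sample labels. The members, lists and tests were chosen with earlier results of these data known.

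Following the methods, log2 intensities of all spots were quantile normalized (limma 3.58.1, R 4.3.3). Control spots (1639) and outlier-marked spots were dropped (161 probe values missing), and spots of a probe were averaged. All arrays entered 1 linear model of population means (lmFit, eBayes), and 7 contrasts and the F-test were read at an adjusted p (Benjamini-Hochberg over 41174 probes) under 0.05. The brightest probe stood for a gene in lists. From each context list the largest called differences, at most 3, were named for HSC subsets against myeloid populations and for GMP against MEP. Where a probe was below background on arrays of a population, no fold is given for it, and fitted log2 differences with that population are no exact sizes. The scripts were tested on simulated data. The replicates are pools of mice, and p-values measure the spread between these arrays, whose number limits the precision. Alternatives were 75th-percentile scaling, normexp correction (offset 50), a filter on dim probes, the authors' table, blocks for scanning run, slide or replicate number, the mean of a gene's probes, a fit without LT-HSC, and fits without each single array. The alternatives for LT-HSC against MEP or MPP were chosen after seeing the data. Kdm1a was found under its older symbol Aof2, and Cebpe was not found on the array. A result of the methyl donor list is not reported here.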

Additional observations from a re-analysis of the deposited data

How the results depend on the processing

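Of 20 member differences called, the authors' table ended 2, normexp correction 2, the dim-probe filter (28667 probes) 1, the 75th percentile 6, slide as a random block 6 and scanning run as a block 12. A change of sign between values called in neither fit was not counted. Counts of member probes called moved by over 1.5 times as follows. With the 75th percentile LT-HSC against ST-HSC gave 0, MPP against CMP 3 and GMP against MEP 1. With normexp LT-HSC against ST-HSC gave 3 and CMP against GMP 2, with the authors' table CMP against GMP gave 2 and GMP against MEP 1, and with the dim-probe filter LT-HSC against ST-HSC gave 0. With the run as a block the contrasts gave 4 (HSC subsets against myeloid populations), 2 (LT-HSC against ST-HSC), 0 (MPP against CMP), 2 (CMP against GMP), 5 (CMP against MEP) and 6 (GMP against MEP). With slide as a random block (correlation 0.36) LT-HSC against ST-HSC gave 0, MPP against CMP 1 and CMP against GMP 2, and without both LT-HSC arrays GMP against MEP gave 1. Scanning day as a block, chosen after seeing the data, gave 5 for the F-test, then 3, 0 (MPP against CMP), 2 (CMP against GMP) and 4 (CMP against MEP). With 1 array left out the counts ranged from 9 to 10 for the F-test, 8 to 10 for HSC subsets against myeloid populations, 0 to 2 for LT-HSC against ST-HSC, 0 to 0 for ST-HSC against MPP, 0 to 5 for MPP against CMP, 0 to 2 for CMP against GMP, 2 to 3 for CMP against MEP and 1 to 3 for GMP against MEP. The mean of all probes of a gene name added calls for Mbd4 (HSC subsets against myeloid populations), Dnmt3a (CMP against MEP) and Mbd2 (GMP against MEP), without sizes here since it averages probes that disagree or lie below background. The causes of these changes were not tested.

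The methods name 1 sort for the HSC subsets, another for the myeloid populations and a pool of mice per replicate sample, so arrays of the same number and sort may come from the same pool, which the labels do not state. Such arrays deviated together at r of 0.056 to 0.18, so the numbers were not taken as pairs. A fit with the replicate block on the numbered arrays called 7 member probes between HSC subsets and myeloid populations. It ended the calls of Mbd2 A_51_P256337 there and between GMP and MEP (adjusted p = 0.051 and 0.083). It added Dnmt3l (1.18, adjusted p = 0.0206) and Mbd1 A_52_P131423 (0.92, 0.0242) between MPP and CMP, Mbd1 A_52_P158923 between CMP and MEP (-0.54, 0.0264) and Mbd2 A_52_P347287 between GMP and MEP (-1.38, 0.0342), and turned the Dnmt3a probe A_52_P169048 from -0.29 to 0.069 (adjusted p = 0.77); this fit holds no LT-HSC array, so contrasts with LT-HSC could not be fitted. The dim LT-HSC array, the 2 LT-HSC arrays and low signal of the Dnmt3l, second Mbd2 and second Mbd4 probes limit what can be said of those values.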
